A study of Zea mays with 12 samples.

Results

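Opaque11 (o11, gene model GRMZM2G147685) encodes a basic helix-loop-helix (bHLH) transcription factor of maize endosperm, and floury3 (fl3, gene model GRMZM2G006585) encodes a protein of the plant-specific PLATZ zinc-binding family. The pair was taken by model identifier, and makes up 2 of the 108342 gene models in the deposited tables. Neither had a further model with identical counts in all 12 libraries. In the gene table of the B73 reference assembly Zm-B73-REFERENCE-NAM-5.0, whose relation to the annotation behind the counts is unknown, no other gene overlapped either of them.

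The starchy endosperm is the reserve tissue of the maize kernel, and kernels with faults in it look opaque or floury instead of glassy. O11 is related to Arabidopsis ZHOUPI, which in that species governs the breakdown of endosperm around the growing embryo. In maize O11 is known as a regulator placed above other endosperm regulators, the storage protein activators o2 and pbf1 among them, and above genes of carbon metabolism. FL3 is known to bind components of the RNA polymerase III machinery, which makes transfer RNAs and 5S ribosomal RNA, and its mutant has floury kernels.

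RNA was sequenced from reciprocal crosses of the inbred lines B73 and Mo17. BxM has B73 as the mother and Mo17 as the pollen parent, and MxB has Mo17 as the mother and B73 as the pollen parent. Ages are in days after pollination (DAP). Each cross gave an unpollinated whole kernel sample (0 DAP), then kernel samples of 3 and 5 DAP, and endosperm of 7, 10 and 15 DAP. The unpollinated kernels carry the mother's genotype alone, so BxM and MxB at 0 DAP stand for B73 and Mo17 ovaries. Endosperm formed after pollination holds 2 maternal genome copies and 1 paternal one in every library, and the counts sum the parental alleles. There is 1 library for each cross and age; the labels speak of 3 groups of plant material per sample, which are not separated in the tables. The submitters' title names imprinted genes and nutrient allocation under the mother's control as the subject. Replicate plants of 1 cross and age are not compared here, so the p-values of the age steps measure how unequally the 2 crosses moved, and those between crosses how unequally the ages did.

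Total counts lay between 59378582 and 70930121 in the libraries of 0 to 10 DAP. The 15 DAP libraries were smaller, with 35401314 counts in BxM and 39864984 in MxB. Levels are CPM, that is, counts relative to library size, scaled with the TMM factors of edgeR (a trimmed mean of log ratios between libraries), and a count of 0 allows up to 3 counts, or 0.0304 to 0.143 CPM, for counting error only. The tissue labels were set against marker genes. The 3 ovule markers zag1, zag2 and bde1 summed to 554.6 to 645.9 CPM in the 6 kernel libraries. In endosperm the same sum was 7.00 CPM (BxM) and 6.99 CPM (MxB) at 7 DAP, 78.2 and 180.8 CPM at 10 DAP, and 1.24 and 1.52 CPM at 15 DAP. The 5 starchy endosperm genes sh2, bt2, wx1, o2 and pbf1 summed to 9.92 to 23.6 CPM in kernels. At 7 DAP they summed to 19.2 CPM in BxM endosperm and 259.5 CPM in MxB endosperm. Sh2, pbf1 and o2 were above every kernel library in both crosses at 7 DAP, with 10.8, 3.76 and 1.02 CPM in BxM. Bt2 and wx1 had 2.74 and 0.803 CPM in BxM at 7 DAP, against 6.39 to 17.8 and 0.578 to 7.28 CPM in kernels. All 5 starchy endosperm genes together summed to 3603 CPM (BxM) and 3219.7 CPM (MxB) at 10 DAP, and to 34566.3 and 34577.7 CPM at 15 DAP.

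Opaque11 was close to undetected before pollination and had higher values at each kernel age and again in endosperm. At 0 DAP it had 2 counts in BxM, under the 3 counts that a count of 0 allows, and 10 counts in MxB. At 3 DAP it had 34 and 66 counts, and at 5 DAP 241 and 252 counts, in BxM and MxB. In CPM the BxM series from 0 to 15 DAP read 0.0223, 0.539, 3.06, 108.1, 383.1 and 267.0. The MxB series read 0.101, 0.811, 3.33, 113.4, 268.9 and 288.6. In both crosses every endosperm library lay far above every kernel library, and the kernel levels were ordered by age. In the signal deposited by the authors, which is also scaled to library size, opaque11 had 108.3 (BxM) and 113.7 (MxB) at 7 DAP, 381.3 and 267.8 at 10 DAP, and 263.6 and 285.1 at 15 DAP.

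Floury3 followed another course, with a small early level in kernels, a very steep entry into endosperm and a low point at 10 DAP. It had 73 counts (BxM) and 248 counts (MxB) at 0 DAP, 73 and 623 counts at 3 DAP, and 3643 and 3695 counts at 5 DAP. In CPM the BxM series from 0 to 15 DAP read 0.814, 1.16, 46.2, 8506, 4468 and 11255. The MxB series read 2.52, 7.65, 48.8, 5275, 2030.3 and 7552. Within each cross the order of the CPM values was 15, 7, 10, 5, 3 and 0 DAP, from the highest to the lowest. At 7 DAP this single model held 0.816% of all counts of the BxM library and 0.507% of those of the MxB library. The shares were 0.366% and 0.174% at 10 DAP, and 0.665% and 0.522% at 15 DAP. By share of counts, unlike by CPM, floury3 was thus higher at 7 than at 15 DAP in BxM.

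**Figure D1:**
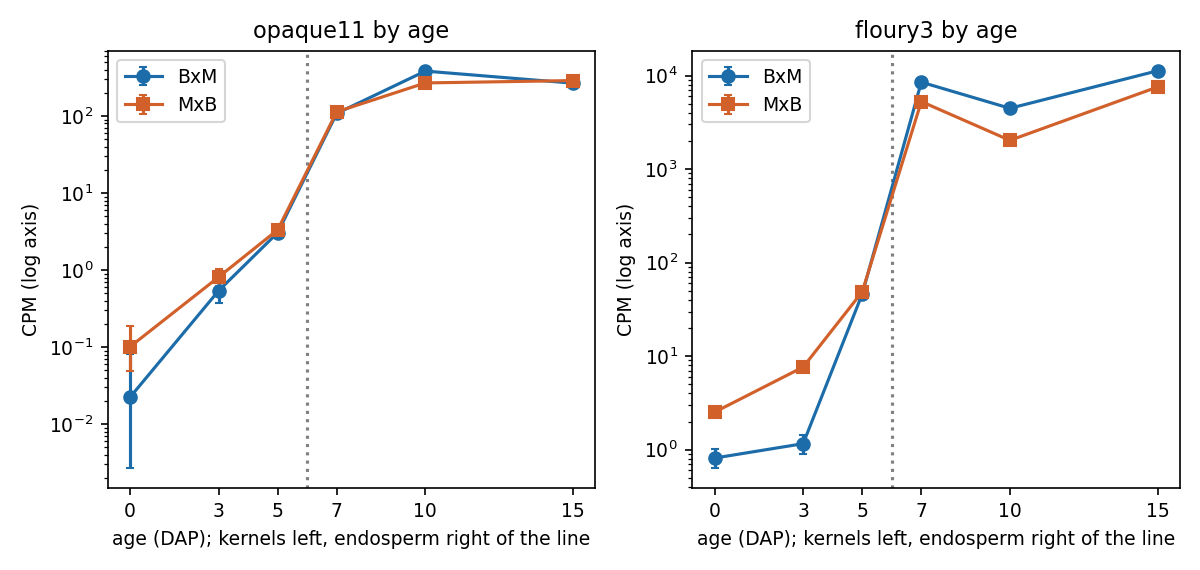
CPM of opaque11 (left) and floury3 (right) on a log axis against age in DAP, 1 point per library, with BxM as blue circles and MxB as orange squares; bars are 95% counting intervals and the dotted line parts kernels from endosperm. Opaque11 is higher at 10 than at 7 DAP in both crosses, while floury3 is lower at 10 DAP than at 7 and 15 DAP in both crosses.

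Opaque11 passed the test already at the first step after pollination. It rose by a log2 fold change of 3.39 (SE 0.499) between 0 and 3 DAP (edgeR's quasi-likelihood test with Benjamini-Hochberg adjustment over 46342 models, adjusted p = 0.0318, higher in both crosses). Of all models tested, 0.531% were called higher at this step. The size of the step in BxM is loosely fixed, since 2 counts stand below it: the BxM level was 24.2-fold higher at 3 DAP (95% counting interval 6.19 to 208), and the MxB level 7.99-fold higher (4.08 to 17.4). The call was lost without BxM at 0 DAP (adjusted p = 0.163), without MxB at 0 DAP (0.0772), without BxM at 3 DAP (0.098), and without any 1 of the BxM and MxB libraries of 5 and 15 DAP (0.0526 to 0.0555).

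Floury3 at the same step had a log2 fold change of 1.38 (SE 0.851, edgeR adjusted p = 0.501), and its crosses did not move alike. The BxM level was 1.42-fold higher at 3 DAP than at 0 DAP (95% counting interval 1.01 to 1.99), and the MxB level 3.04-fold higher (2.62 to 3.54). With the MxB library of 3 DAP left out, the fit, which takes the cross difference from the other ages, gave a change of -0.67.

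Between 3 and 5 DAP neither gene passed the test over all models, at a step where 0.0129% of models were called higher and 0% lower (2891 models were higher and 1732 lower at an unadjusted p under 0.05). Opaque11 had a log2 change of 2.25 (SE 0.403, edgeR adjusted p = 0.163), with levels at 5 DAP that were 5.67-fold (BxM) and 4.11-fold (MxB) those at 3 DAP. Floury3 had a log2 change of 3.51 (SE 0.919, adjusted p = 0.27), made of a 40.0-fold higher level in BxM and a 6.38-fold higher level in MxB. Its BxM and MxB levels were 1.16 and 7.65 CPM at 3 DAP, and 46.2 and 48.8 CPM at 5 DAP. Without MxB at 3 DAP floury3 was called higher at 5 DAP (5.46, adjusted p = 0.0374), and DESeq2 called both genes higher (opaque11 2.17, adjusted p = 0.000163; floury3 3.47, adjusted p = 0.00168).

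The largest fitted step of both genes lay between 5 DAP kernels and 7 DAP endosperm, which differ in tissue as well as in age. Opaque11 had 108.1 CPM (BxM) and 113.4 CPM (MxB) at 7 DAP, against 3.06 and 3.33 CPM at 5 DAP. It rose by a log2 of 5.12 (SE 0.439, edgeR adjusted p = 0.000282), and its fold was nearly the same in the crosses, 35.4 in BxM and 34.0 in MxB. Floury3 had 8506 and 5275 CPM at 7 DAP, against 46.2 and 48.8 CPM at 5 DAP, and rose by 7.21 (SE 1.07, adjusted p = 0.00204), 184-fold in BxM and 108-fold in MxB. Of the models tested, 10% were called higher at this step. A larger fitted change was found in 214 of the 46342 models for floury3 and in 861 for opaque11. In RNA from whole samples, a larger share of endosperm cells and more of the transcript per cell cannot be told apart. The marker lists moved at this step too. Each of the 3 ovule markers was called lower, where 14.8% of all models were. Of the marker genes of endosperm regions, all 4 of the embryo-surrounding region rose (median log2 change 4.63), as did 3 of 4 of the transfer layer (6.27), 3 of 5 of the starchy endosperm (5.43) and 1 of 2 of the aleurone (3.01), against a median of 0 over all models. Each median covers the whole list. The starchy endosperm genes that rose were sh2, o2 and pbf1, while bt2 (-0.39) and wx1 (-0.61) were not called. The aleurone gene was nkd1. O2, pbf1 and nkd1 are also among the regulators listed below. Of the 5 embryo markers 3 rose and 1, kn1, fell (median of the list 3.57). Kn1 had 20.1 CPM (BxM) and 22.6 CPM (MxB) in unpollinated kernels, so it does not mark the embryo alone. The part of these cell types in the 2 genes' rise was not tested.

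Inside the endosperm opaque11 was higher at 15 than at 7 DAP. Between 10 and 15 DAP its crosses parted in direction in CPM, but not as a share of all counts. From 7 to 10 DAP its log2 change was 1.57 (SE 0.376, edgeR adjusted p = 0.0574), with levels at 10 DAP that were 3.54-fold (BxM) and 2.37-fold (MxB) those at 7 DAP, at a step where 2.83% of models were called higher. It was called higher in the fit of the 6 endosperm libraries alone (1.55, adjusted p = 0.0146) and with DESeq2 (1.57, adjusted p = 0.00197). Leaving out either library of 0 DAP also gave a call for opaque11 (1.56 in both), in fits that are not separate, since the library left fixes its own age alone. Of the 12 fits with 1 library left out, 10 did not call it. Those without a library of 7 or 10 DAP were among them, with changes of 1.09 to 1.95. From 10 to 15 DAP its level was 0.697 times as high in BxM and 1.07 times in MxB, with a fitted log2 change of -0.25 (SE 0.368, adjusted p = 0.715) that became 0.03 with DESeq2's size factors and 0.08 with upper-quartile factors. Over the whole span it rose by 1.33 between 7 and 15 DAP (SE 0.374, adjusted p = 0.0306), 2.47-fold in BxM and 2.55-fold in MxB. Of the models tested, 8.73% were called higher over this span, and the median over all models was -0.53. That call was lost without BxM or MxB at 7 DAP (adjusted p = 0.129 and 0.159), without BxM or MxB at 15 DAP (0.134 and 0.103) and when the MxB kernels of 5 DAP were left out (0.0501).

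Floury3 dipped in value at 10 DAP in both crosses, without passing the test. Its 10 DAP levels of 4468 CPM (BxM) and 2030.3 CPM (MxB) were 0.525 and 0.385 times its 7 DAP levels (log2 change -1.07, SE 0.828, edgeR adjusted p = 0.562; 0.962% of models were called lower). Its 15 DAP levels of 11255 and 7552 CPM were 2.52 and 3.72 times those of 10 DAP (log2 change 1.51, SE 0.837, adjusted p = 0.265; 3.73% called higher). In the fit of the 6 endosperm libraries alone the later step was called higher (1.82, adjusted p = 0.0077). Between 7 and 15 DAP the change was 0.44 (SE 0.819, adjusted p = 0.746). Without MxB at 7 DAP it was -0.04, and without BxM at 15 DAP it was -0.17. Marker sums of other cell types also differed between the endosperm ages. The 5 embryo markers ole1, ole17, vp1, lec1 and kn1 summed to 34.6 CPM (BxM) and 67.2 CPM (MxB) at 7 DAP, 400.9 and 209.8 CPM at 10 DAP, and 20.2 and 31.7 CPM at 15 DAP, with lec1 at 0 in MxB at 10 DAP and in both crosses at 15 DAP. At 10 DAP ole1 alone had 330.7 and 164.2 CPM. From 7 to 10 DAP 1 of the 5 was called higher, where 2.83% of models were. In value ole1, ole17 and vp1 rose in both crosses and lec1 fell in both. Kn1 fell in BxM (0.909 to 0.308 CPM) and rose in MxB (0.945 to 7.47 CPM). It does not mark the embryo alone, with 20.1 CPM (BxM) and 22.6 CPM (MxB) in unpollinated kernels. The ovule sums given above were also highest at 10 DAP among the endosperm ages. The 4 embryo-surrounding genes summed to 2487.3 CPM (BxM) and 1087.4 CPM (MxB) at 7 DAP, 83.8 and 166.3 CPM at 10 DAP, and 0.383 and 1.09 CPM at 15 DAP. They shared the lower value at 10 than at 7 DAP with floury3, and all 4 fell further by 15 DAP (14% of models were called lower), the step at which floury3 had higher values. The 4 transfer-layer genes also had a lower sum at 10 DAP, with 10205.1 CPM (BxM) and 3659.5 CPM (MxB) at 7 DAP and 1962.7 and 3167.8 CPM at 10 DAP. Betl1, bap2 and meg1 were lower in both crosses, while mn1 was lower in BxM and higher in MxB (245.2 to 1293.3 CPM). All 4 were called lower from 10 to 15 DAP. The part of these cells in the floury3 values was not tested.

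**Figure D2:**
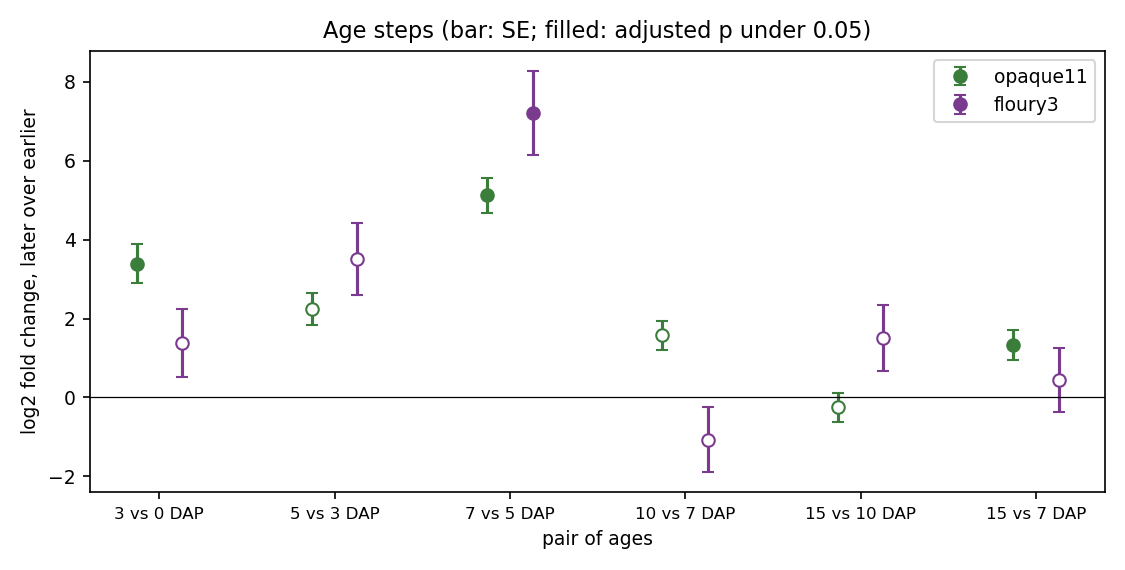
Log2 fold change, later over earlier age, of opaque11 (green) and floury3 (purple) for 6 pairs of ages on the x axis, from edgeR's fit of all 12 libraries; bars are SE and filled points have an adjusted p under 0.05. Opaque11 is filled at 3 against 0, 7 against 5 and 15 against 7 DAP, and floury3 at 7 against 5 DAP.

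In unpollinated kernels both genes had more counts in MxB than in BxM. The BxM to MxB ratio of opaque11 at 0 DAP was 0.22, with a 95% counting interval of 0.0234 to 1.03 that includes equal levels. In BxM at 0 DAP floury3 stood at 0.00724% and opaque11 at 0.00582% of the highest level each reached in that cross, and in MxB at 0 DAP they stood at 0.0333% and 0.0351%. The transfer-layer genes betl1 and bap2 mark the basal endosperm cells that take up nutrients. They had 0 and 6 counts in BxM at 0 DAP, and 41 and 178 counts in MxB, which is 0.0445% and 0.0787% of their highest levels in that cross. The other two genes of that list, mn1 and meg1, had 885 and 1 counts in BxM, and 2567 and 25 counts in MxB. Of the embryo-surrounding genes, esr2, esr3 and esr6 had 0 counts and esr1 had 1 in BxM, and the 4 genes stood at 0.028% to 0.0537% of their highest levels in MxB. In CPM the MxB library of 0 DAP, an unpollinated kernel by its label, was thus the higher one for 4 of 4 transfer-layer and 4 of 4 embryo-surrounding genes. The other lists were mixed. Of the 7 listed regulators 5 were higher in MxB, o2 among them on 2 counts against 1, while ohp1 (2202 counts in BxM and 364 in MxB) and nkd2 (119 and 76) were higher in BxM. Of the starch genes, wx1 had 1.91 CPM in BxM and 0.578 CPM in MxB, bt2 had 17.8 and 17.1 CPM, and sh2 had 1.36 and 2.29 CPM. Among the other listed O11 targets, pdk1 (7.67 and 0.963 CPM), sus1 (388 and 276.7), sus2 (74.1 and 12.6) and dof3 (9.98 and 9.87) were higher in BxM. Ppdk2 (1.02 and 2.63 CPM) was higher in MxB. The part of the transfer layer and the embryo-surrounding region in the 0 DAP counts of opaque11 and floury3 was not tested.

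At 3 DAP floury3 again had its higher level in MxB. It had 1.16 CPM in BxM and 7.65 CPM in MxB, while the 4 embryo-surrounding genes summed to 0.222 CPM in BxM, where esr1 and esr3 were at 0, and 1.89 CPM in MxB. Esr1, esr2 and esr3 were higher in MxB, while esr6 had 0.127 CPM in BxM and 0.0737 CPM in MxB, on 8 and 6 counts. Betl1 had 4 counts in BxM and 97 in MxB, and bap2 had 8 in BxM and 317 in MxB, while mn1 had 274.6 CPM in BxM and 248.6 CPM in MxB. Opaque11 differed less, with 0.539 CPM in BxM and 0.811 CPM in MxB. The part of the transfer layer and of the embryo-surrounding region in the kernel values of floury3 was not tested. At 5 DAP the embryo-surrounding genes had 79.2 CPM (BxM) and 92.5 CPM (MxB) in sum, and the crosses had nearly equal levels of opaque11 and of floury3.

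Within endosperm the crosses differed more for floury3 than for opaque11 in value. The BxM level of floury3 was 1.61 times the MxB level at 7 DAP (95% counting interval 1.61 to 1.62), 2.20 times at 10 DAP (2.19 to 2.22) and 1.49 times at 15 DAP (1.48 to 1.5). For comparison, the upper quartile of this log2 ratio (CPM + 0.5) over all models with at least 100 counts in the pair was 0.30, 0.34 and 0.36 at these ages, and floury3 stood at 0.69, 1.14 and 0.58. The fitted difference, BxM over MxB, was 0.82 on the log2 scale (SE 0.277, edgeR adjusted p = 0.358, unadjusted p = 0.0187, higher in BxM at 3 of 3 ages). That fit of the 6 endosperm libraries called 0.0103% of 38795 models higher and 0.00258% lower in BxM (2095 higher and 2089 lower at an unadjusted p under 0.05). DESeq2 called floury3 higher in BxM (0.84, adjusted p = 0.00645), as did edgeR without BxM or without MxB at 7 DAP (0.90 in both). The library left alone at 7 DAP holds nothing on the cross difference, so those edgeR fits are not separate results. Of the 6 edgeR fits with 1 endosperm library left out, 4 did not call floury3. The difference lay between 0.63 and 0.92 over the 6 fits.

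Opaque11 had a BxM to MxB ratio of 0.953 at 7 DAP (0.923 to 0.985), 1.42 at 10 DAP (1.40 to 1.46) and 0.925 at 15 DAP (0.894 to 0.957). The 10 DAP pair alone had the higher level in BxM, and its log2 ratio of 0.51 lay above the upper quartile of 0.34 over all models. The fitted difference in endosperm was 0.12 (SE 0.214, edgeR adjusted p = 0.885), and it was -0.07 when the BxM library of 10 DAP was left out and -0.09 when its MxB counterpart was.

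In pollinated kernels of 3 and 5 DAP neither gene passed, in a fit that called 4.03% of 40879 models higher and 3.64% lower in BxM. The log2 difference, BxM over MxB, was -1.39 for floury3 (SE 0.673, edgeR adjusted p = 0.319) and -0.37 for opaque11 (SE 0.747, adjusted p = 0.944). It was made at 3 DAP: the floury3 ratio was 0.151 there (0.117 to 0.193) and 0.946 at 5 DAP (0.904 to 0.991). At 0 DAP, with 1 library per mother and no test, the floury3 ratio was 0.324 (0.246 to 0.422). The floury3 values were thus higher in BxM in endosperm and higher in MxB in kernels. The turn itself was tested over all 12 libraries as the cross difference in endosperm less that in kernels, where the kernel term also holds the unpollinated 0 DAP pair. It gave 2.26 on the log2 scale for floury3 (SE 0.621, adjusted p = 0.0947; 1.82% of models were called higher and 2.02% lower) and 0.67 for opaque11 (SE 0.418, adjusted p = 0.546). For floury3 the turn was called with DESeq2 (2.32, adjusted p = 0.00251) and in edgeR without a filter on low counts (2.26, adjusted p = 0.0173). It was also called when either library of 5 DAP, the kernel age with nearly equal crosses, was left out (2.98 in both). With either library of 0 DAP left out the turn was 2.22 and was not called. A library left alone at its age holds nothing on the cross difference, so the fits of such a pair are not separate results. B73 is the name in the header of each count column, total counts do not tell which parent's allele was read, and how well reads of Mo17 alleles were counted was not tested.

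**Figure D3:**
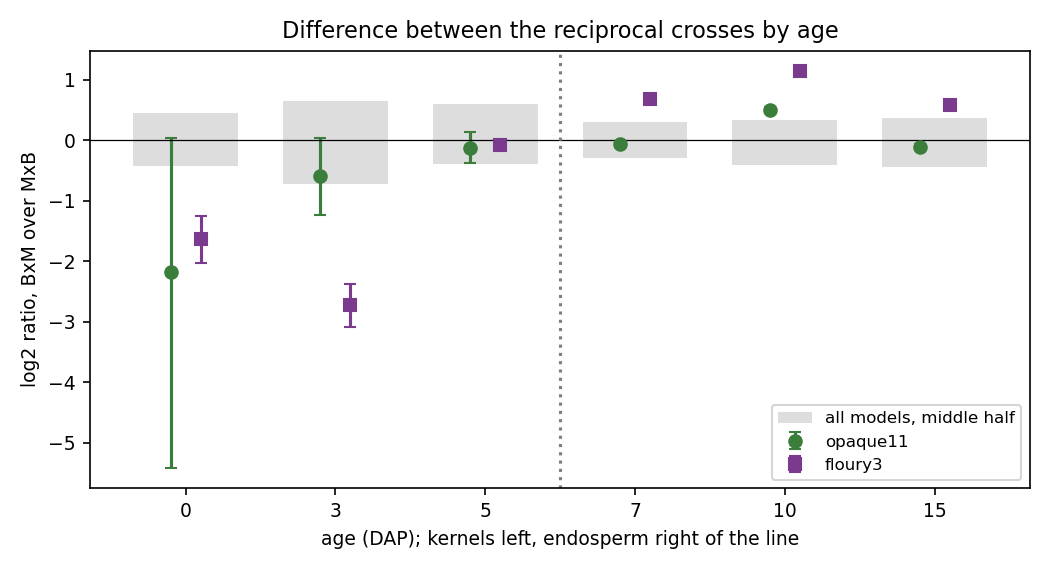
Log2 ratio of the BxM level over the MxB level against age in DAP for opaque11 (green circles) and floury3 (purple squares), with 95% counting intervals; grey boxes span the interquartile range of all models with at least 100 counts in the pair. Floury3 lies below the box at 0 and 3 DAP, within it at 5 DAP and above it at 7, 10 and 15 DAP. Opaque11 lies above the box at 10 DAP. The boxes, unlike the points, were computed on CPM + 0.5, so the opaque11 point at 0 DAP, on 2 and 10 counts, is not comparable with its box.

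By 7 DAP opaque11 and floury3 had reached a larger share of their highest level than o2, pbf1 and nrp1 had, and opaque11 a smaller one than ohp1 and ohp2. At 7 DAP floury3 was at 75.6% (BxM) and 69.9% (MxB) of the highest level it reached in each cross, and opaque11 at 28.2% and 39.3%. At that age the bZIP regulator o2, an activator of zein storage protein genes, stood at 0.122% and 0.569% of its own highest level. The Dof protein gene pbf1, a partner of o2 at zein promoters, stood at 1.26% and 3.29%, and the NAC gene nrp1 at 2.64% and 15.2%. The starch genes sh2, bt2 and wx1 stood at 0.00557% to 0.104% in BxM and at 0.0862% to 1.79% in MxB. The naked endosperm genes nkd1 and nkd2, zinc finger regulators of aleurone and starchy endosperm, had shares of the same order as opaque11, with 32.6% and 73% for nkd1 and 23.3% and 56.8% for nkd2. The bZIP genes ohp1 and ohp2, relatives of o2, were already present in kernels, at 18.4% to 94.2% of their highest level at 0 DAP. At 7 DAP ohp1 stood at 72% (BxM) and 69% (MxB), and ohp2 at 76.2% and 58.7%.

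Of 7 listed endosperm regulators (o2, pbf1, ohp1, ohp2, nkd1, nkd2, nrp1), 5 had higher levels in 7 DAP endosperm than in 5 DAP kernels by edgeR's test and 0 had lower ones (median log2 change 5.43, against 0 over all models tested, of which 10% were called higher and 14.8% lower). Ohp1 (0.77, edgeR adjusted p = 0.435) and ohp2 (-0.16, adjusted p = 0.69) did not pass. From 7 to 10 DAP 3 of 7 rose, namely o2, pbf1 and nrp1 (median 1.34, against -0.05 over all models, of which 2.83% were called higher). From 10 to 15 DAP 1 of 7 rose, o2 (median 0.14, against -0.37; 3.73% of models were called higher). Between 0 and 3 DAP none passed (edgeR; 0 of 7 at an unadjusted p under 0.05; median 0.47, against -0.06), and between 3 and 5 DAP none did (0 of 7 unadjusted; median -0.04, against 0.02).

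The genes listed as reported partners or targets of O11 did not share 1 course. At the step into 7 DAP endosperm 5 of 8 rose and 2 fell (median 5.11, against 0 over all models tested, of which 10% were called higher and 14.8% lower). The 2 that fell were sus1 and a model listed by the name dof3, which may not be the Dof gene reported as a target. O2, pbf1 and nkd2 are also among the regulators listed above. Both pyruvate orthophosphate dikinase genes, which link glycolytic intermediates to amino acid and starch metabolism in endosperm, were among those that rose. Ppdk2 had 600.8 CPM (BxM) and 390.3 CPM (MxB) at 7 DAP, against 11.7 and 7.52 CPM at 5 DAP (log2 change 5.69, SE 0.682, edgeR adjusted p = 0.000865). It went on to 3782 and 1938 CPM at 10 DAP and 9926 and 6423 CPM at 15 DAP, and rose by 4.04 between 7 and 15 DAP (SE 0.63, adjusted p = 0.00221). Pdk1 had 181.3 and 80.7 CPM at 7 DAP, against 13.4 and 0.819 CPM at 5 DAP (4.78, SE 0.974, adjusted p = 0.00779). Nkd2 rose by 5.48 (SE 0.647, adjusted p = 0.000816).

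Sucrose synthase gene sus1, whose product cleaves incoming sucrose, fell at this step by 2.09 on the log2 scale (SE 0.477, edgeR adjusted p = 0.013), rose by 3.41 to 10 DAP (SE 0.504, adjusted p = 0.0125) and fell by 4.99 to 15 DAP (SE 0.545, adjusted p = 0.000942). The model that the gene table calls dof3 had the same signs, -6.13, 5.77 and -5.64 (adjusted p = 0.000398, 0.00465 and 0.000971). Whether it is the Dof gene reported as a target is not known. It had 0.0606 CPM (BxM) and 0.09 CPM (MxB) at 7 DAP, 3.25 and 5.17 CPM at 10 DAP, and 0.0956 and 0.0726 CPM at 15 DAP, on 2 to 6 counts in each of the 7 and 15 DAP libraries. The ovule markers given above were called lower, higher and lower at the same steps, and their part in the dof3 and sus1 values was not tested. Of the 8 genes, 4 were higher at 10 DAP than at 7 DAP (o2, pbf1, sus1 and dof3; median 3.41, against -0.05; 2.83% of models were called higher), and 4 were higher and 1, sus1, lower at 15 than at 7 DAP (median 2.42, against -0.53; 8.73% of models were called higher and 16.7% lower). The cross difference in kernels was called for pdk1 (3.08, adjusted p = 0.0316) and sus2 (2.82, adjusted p = 0.0213), both higher in BxM, of 6 tested (4.03% of models were called higher), and in endosperm for 0 of 8 (edgeR; 1 of 8 at an unadjusted p under 0.05; median 0.22, against -0.03).

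For floury3 the gene table named a single component of the RNA polymerase III machinery, the transcription factor IIIA gene GRMZM2G050939. It had 5.73 to 16.0 CPM in all 12 libraries and passed no test between ages or crosses (edgeR adjusted p of 0.204 to 0.9; unadjusted p under 0.05 at 10 against 7 DAP alone). At the step into 7 DAP endosperm its log2 change was -0.08 (SE 0.343, edgeR adjusted p = 0.9), where floury3 rose by 7.21.

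**Figure D4:**
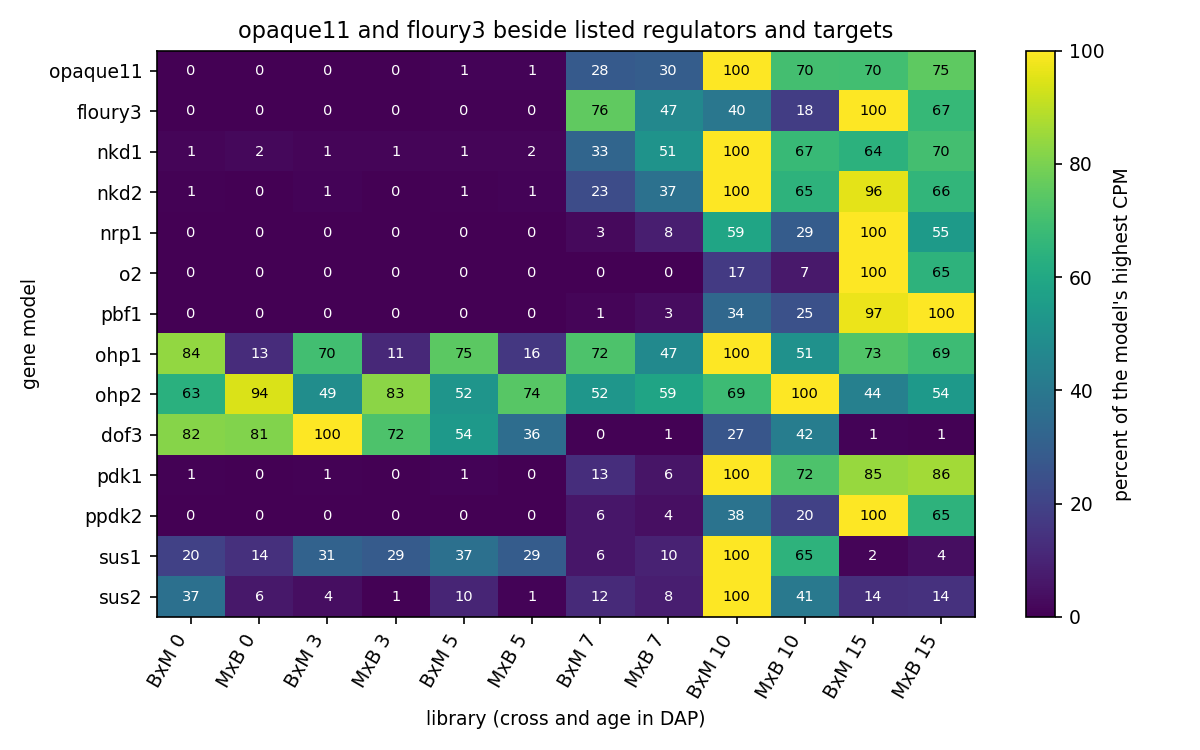
Each cell gives the CPM of a gene (y axis) in a library (x axis, cross and age in DAP) as a percent of that gene's highest CPM over the 12 libraries. Opaque11 and floury3 (top rows) have their higher shares from 7 DAP on, o2, pbf1 and nrp1 from 10 DAP on, and sus1 and dof3 are low at 7 and 15 DAP.

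Over the 12 libraries the log2(CPM + 1) values of opaque11 and floury3 had a Pearson correlation of 0.972, and their CPM a Spearman correlation of 0.811. All libraries share the split between kernels and endosperm, and 1310 of the 27655 other models with a mean count of at least 100 had a Pearson correlation above 0.9 with opaque11, and 872 with floury3. The values below are therefore descriptions.

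The models most like opaque11 were GRMZM2G021998 (r = 0.998), GRMZM2G137502 (0.996), GRMZM2G382914 (0.995), GRMZM2G704349 (0.995) and AC186147.3_FG008 (0.994). GRMZM2G137502 carries the name DOF36 in the gene table, of the Dof zinc finger family, and had 120.8 CPM (BxM) and 78.3 CPM (MxB) at 7 DAP, 254.9 and 177.8 CPM at 10 DAP, and 208.0 and 152.6 CPM at 15 DAP. GRMZM2G382914, named Pgk-2 there, had 2233.1 to 3856.6 CPM in the 6 endosperm libraries and 334.4 to 701.8 CPM in the 6 kernel libraries, so that its kernel values were not near 0 as those of opaque11 were. The first model, GRMZM2G021998, had 97.9 CPM (BxM) and 117.7 CPM (MxB) at 7 DAP, 267.7 and 198.2 CPM at 10 DAP, and 250.8 and 206.7 CPM at 15 DAP. Its BxM level was the higher one at 10 and 15 DAP and the lower one at 7 DAP. In the listed regulators, r with opaque11 was 0.984 for nkd2, 0.978 for nkd1, 0.969 for nrp1, 0.914 for pbf1 and 0.836 for o2. It was 0.49 for ohp1 and -0.2 for ohp2.

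The models most like floury3 were GRMZM2G386155 (r = 0.996), GRMZM2G127160 (0.995), GRMZM2G146677 (0.992), AC191534.3_FG003 (0.989) and GRMZM2G402538 (0.989). GRMZM2G386155 had 244.5 CPM (BxM) and 263.5 CPM (MxB) at 7 DAP, 171.2 and 185.6 CPM at 10 DAP, and 388.9 and 366.7 CPM at 15 DAP, with the same low point at 10 DAP in both crosses. GRMZM2G127160, named TA1 in the gene table, had 1175.4, 1354.2 and 1874.8 CPM at 7, 10 and 15 DAP in BxM, and 1644.2, 751.6 and 991.2 CPM in MxB, so its low point at 10 DAP was in MxB alone. Of the 5 models ranked highest by Spearman correlation, 0 were among these for opaque11 and 1, GRMZM2G386155, for floury3, so these names depend on the measure.

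**Figure D5:**
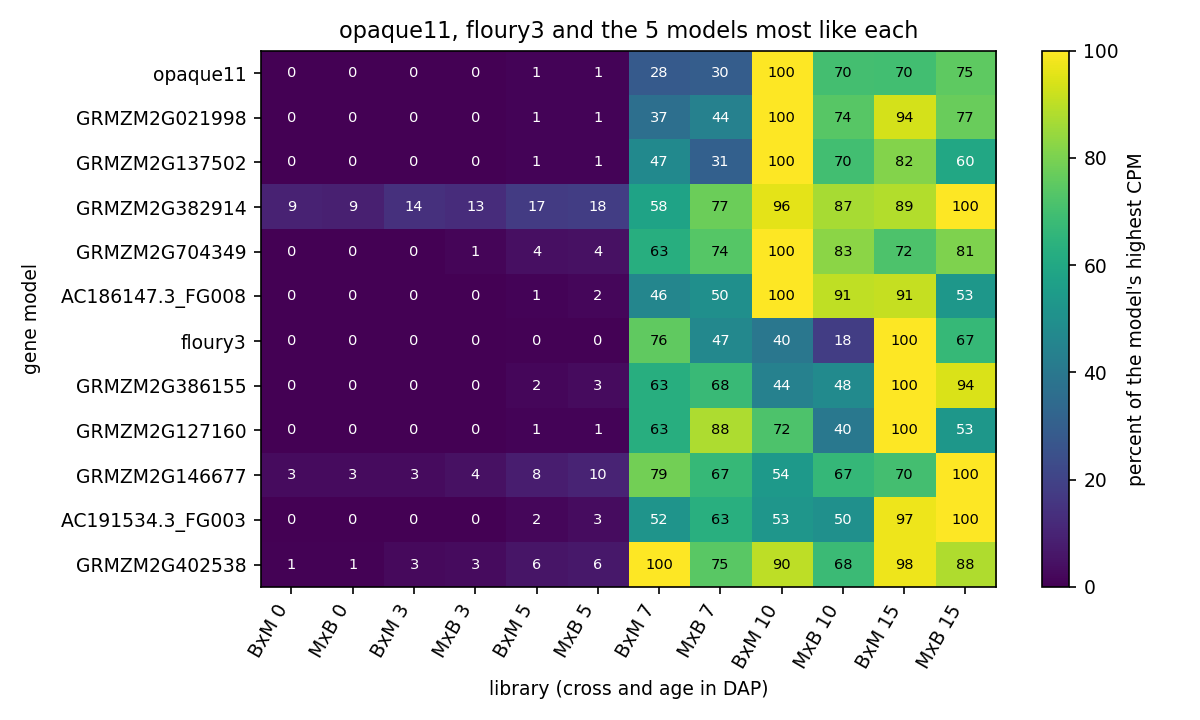
Percent of each model's highest CPM (cell values) in the 12 libraries (x axis, cross and age in DAP) for opaque11 and floury3 and the 5 models with the highest Pearson correlation to each (y axis, listed under their gene). Opaque11 and 4 of the 5 models under it are highest in BxM at 10 DAP, and floury3 and 2 of the 5 models under it in BxM at 15 DAP.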

How the data were processed

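RNA-seq tables of 12 maize libraries, 1 for each cross and age, were used. The authors deposited raw counts over 108342 gene models and a signal, which the note deposited with the tables describes as RPM on library sizes scaled by edgeR's normalization factors. Within a library the signal was a constant multiple of the counts (largest relative spread 9.43e-06 over models with at least 1000 counts). Bowtie and bedtools are listed, per the submitters' processing notes, and the genome build is not given in the sources used here. Total counts of 35401314 to 70930121 per library set the counting intervals.

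The test on the deposited counts was the quasi-likelihood F test of edgeR 4.0.16, run in R 4.3.3 (low counts removed by filterByExpr, TMM scaling, Benjamini-Hochberg threshold 0.05; log2 changes with a prior count of 0.125). SE is the log2 change divided by the square root of F. Age steps came from 1 model of the 12 libraries whose terms were age and cross (5 residual degrees of freedom), the cross difference on 6 endosperm libraries (2) or on 4 kernel libraries of 3 and 5 DAP (1), and its turn as a cross-by-tissue term (4). For steps using 15 DAP, 21 models that are abundant elsewhere and listed at 0 there were set aside, neither member among them. Alternatives were DESeq2 1.42.0, other scalings, no filter on low counts, no cross term, endosperm alone, each library left out, and Spearman in place of Pearson correlation.

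The members and lists were chosen with earlier results of these data known. Named models are the members, the 5 with the highest Pearson correlation to each among models with a mean count of at least 100 (identical models counted once), and lists filled by symbol from the Zm-B73-REFERENCE-NAM 5.0 gene table, in which all 35 listed models matched. Planned names that this table does not tie to a model of the files were not used here, nor were a PLATZ family list, O11 relatives, promoter motifs and sequences.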

Additional observations from a re-analysis of the deposited data

Results flagged for a closer look

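In CPM opaque11 moved in opposite directions in the crosses between 10 and 15 DAP, which marks it for a second look. The log2 change, 15 over 10 DAP, was -0.52 in BxM, with 267.0 CPM at 15 DAP against 383.1 CPM at 10 DAP, and 0.10 in MxB, with 288.6 CPM at 15 DAP against 268.9 CPM at 10 DAP. As a share of all counts of a library, opaque11 was lower at 15 than at 10 DAP in both crosses. The shares were 0.0158% against 0.0314% in BxM, and 0.0199% against 0.0231% in MxB. There was 1 library for each cross and age, and the difference between the crosses at this step was not tested.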

How the results depend on the processing

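Of 270 alternative values over 18 results on the 2 genes, 234 kept their direction and their side of the threshold, 12 lost a call, 15 gained one and 9 changed sign. The cause of these shifts was not tested. With DESeq2 the calls gained were 5 against 3 DAP for opaque11 (2.17) and floury3 (3.47), 10 against 7 DAP for opaque11 (1.57), and for floury3 the cross difference in endosperm (0.84) and its turn against kernels (2.32). That turn was also called without a filter on low counts (2.26). In endosperm alone 10 against 7 DAP was called for opaque11 (1.55) and 15 against 10 DAP for floury3 (1.82). The opaque11 change at 15 against 10 DAP (-0.25) became 0.03 with DESeq2's size factors in edgeR, 0.08 with upper-quartile factors and 0.03 with DESeq2. These scalings moved the median of all models at that step from -0.37 to -0.11 and -0.08, at 15 against 7 DAP from -0.53 to -0.28 and -0.24, and upper-quartile factors moved it at 7 against 5 DAP from 0 to 0.20. At 15 against 7 DAP opaque11 then had 1.60 and 1.64 in place of 1.33.

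With each library left out in turn, opaque11 ranged from 2.82 to 4.79 at 3 against 0 DAP, 2.05 to 2.52 at 5 against 3, 5.05 to 5.18 at 7 against 5, 1.09 to 1.95 at 10 against 7, -0.64 to 0.22 at 15 against 10 and 1.25 to 1.48 at 15 against 7 DAP. Floury3 ranged from -0.67 to 2.48, 2.58 to 5.46, 6.55 to 7.70, -2.14 to -0.37, 0.87 to 2.56 and -0.17 to 1.12 at the same steps. The cross difference in endosperm ranged from -0.09 to 0.24 for opaque11 and 0.63 to 0.92 for floury3, and its turn from 0.48 to 1.05 and from 1.62 to 2.98. The sign of opaque11 at 15 against 10 DAP turned without BxM at 10 DAP (0.22). A lone library left at an age was assumed to vary like the others. The kernel fit of 4 libraries left no residual degrees of freedom for this.

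Counts of called models depended on the setting. DESeq2 called 3612 models at 3 against 0 DAP where edgeR called 254, 1592 against 6 at 5 against 3 DAP, 5932 against 1757 at 10 against 7 DAP, 1110 against 5 for the cross difference in endosperm and 4155 against 1781 for its turn. Without a filter edgeR called 393 at 3 against 0 DAP, 19 at 5 against 3 DAP, 850 for the cross difference in endosperm and 5074 in place of 3139 for that in kernels. Without a cross term it called 149 at 3 against 0 DAP and 1140 at 10 against 7 DAP, in endosperm alone 3301 at 10 against 7 DAP, and with either other scaling 2 for the cross difference in endosperm. The age steps carry cross as a block and the cross differences carry age, and without the cross term no call on either gene changed at any age step. The labels give no replicate numbers to pair by. Opaque11 at 0 DAP, with 2 and 10 counts in BxM and MxB, is limited by depth.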
